A study of Oryza sativa with 6 samples.

Results

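The microRNA family miR169 and 6 loci of NF-YA (HAP2) transcription factors, the family that miR169 is known to target, were followed in rice roots under hexavalent chromium, Cr(VI). The members were all 48 array probes whose names start with osa-miR169, which cover 16 loci (miR169a to miR169p) with 3 tags each (5'seq, 3'seq and Mature), and the 8 probes of the 6 NF-YA loci, out of 42477 probes in all. The array carried 510 microRNA probes. Roots came from seedlings of the cultivar TN-67 at 6 days of age. The short group had received 50 µM Cr(VI) and pooled roots taken at 1 h and at 3 h, the long group had received the same dose for 24 h, and each array set the treated roots (Cy5) against roots kept in water (Cy3). There were 3 arrays per exposure, labelled as biological replicates, and the labels do not say whether any control RNA was used on more than 1 array.

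NF-YA is the subunit of the trimeric factor NF-Y that recognises the CCAAT box of promoters, in complex with NF-YB and NF-YC. In plants, miR169 pairs with a site in the 3' untranslated region of many NF-YA transcripts and directs their cleavage. In rice, miR169g is known as a drought-induced member and miR169n and miR169o as salt-induced members. NF-YA factors are known in plants for roles in drought tolerance, nutrient responses and root growth. The files do not state whether a tag reads the primary transcript, the hairpin or the mature microRNA, so the tags are given as written. The mature sequences of the family are close to each other, and cross-hybridisation between Mature probes was not tested. The files used here hold no probe, microRNA or transcript sequence, so the presence of a miR169 site in each of the 6 loci was not analysed here.

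The arrays had a median control signal of 328 to 535.5 and a median treated signal of 263 to 438.5 on a linear scale, and no spot was saturated. Of 4 loci listed from general knowledge as root markers, the control roots showed 3 clearly above background on all 6 arrays and 1 on none. Of 5 loci listed as photosynthesis markers, the control roots showed 1 above background on all 6 arrays and the others on 1 to 4, so that signal of green tissue genes was not absent. The part of this signal in the results was not tested. Slide 1 held short replicate 1, slide 2 held short replicates 2 and 3, and slide 3 held all long replicates, so that exposure and slide cannot be told apart in a difference between exposures. No dye was swapped, so a probe's own dye bias cannot be told apart from a ratio against control. In bulk roots, fewer cells of a type and less RNA per cell cannot be told apart either.

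Many miR169 probes gave no signal above background. Of the 48 miR169 probes, 16 were well above background in either channel on all 6 arrays, 8 on 3 to 5 arrays, 11 on 1 or 2 arrays and 13 on none. The 24 probes above background on at least 3 arrays were tested. They were 10 of 16 5'seq probes, 10 of 16 3'seq probes and 4 of 16 Mature probes. The 4 tested Mature probes were those of miR169a, miR169d, miR169e and miR169p. The 24 untested probes had mean log2 ratios of treated over control between -0.18 and 0.15 in either exposure, which at this signal gives no measure of change. All probes of miR169f, miR169k and miR169o were among them. Each miR169 probe had 2 spots per array, and the ratios of these spots differed by a median of 0.10 on the log2 scale over the tested probes.

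After the short exposure, 6 of the 24 tested miR169 probes rose and 3 fell, against 30.6% higher and 24.2% lower among all 23500 genes tested (limma, Benjamini-Hochberg adjusted p under 0.05). Changes in either direction were thus common, at 54.7% of all genes. The 6 make 25% and the 3 make 12.5% of the tested probes, and neither share lies above that background. Among all 265 microRNA probes tested, 31.7% rose and 7.92% fell. The median log2 ratio was 0.06 over the 24 probes and 0.02 over all genes tested. At 24 h, 5 probes rose and 2 fell, against 33.7% and 30.9% of all genes (64.6% in either direction) and 28.7% and 14.3% of the microRNA probes, with a median of 0.03 against 0.02. With this normalization no miR169 probe changed 2-fold in any comparison, where 4.61% of all genes were 2-fold higher and 0.638% 2-fold lower after the short exposure, 4.89% and 3.42% at 24 h, and 2.2% and 3.77% in the difference between exposures. Of the 9 probes called after the short exposure and the 7 called at 24 h, 5 were called in both in the same direction. The share of all genes called in both was not counted, so the 5 cannot be read as particular to the family. With median centring in place of loess, 4 rose and 1 fell after the short exposure, where 5715 of all genes were higher and 4057 lower. From the scanner software's processed signals, 5 rose and 5 fell at 24 h, where 6928 of all genes were higher and 7664 lower. With these signals, called short ratios of the dim probes miR169b 3'seq, miR169b 5'seq, miR169g 3'seq and miR169p Mature passed 2-fold. At 24 h that of miR169g 3'seq did. One of the probes counted as higher in both exposures, miR169g 3'seq, passed the filter on signal through its treated channel alone.

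By tag, 4 of the 10 tested 3'seq probes rose and 1 fell after the short exposure, and at 24 h 4 rose and 2 fell, close to or below the 54.7% and 64.6% of all genes called. Of the 10 tested 5'seq probes, 1 rose and 1 fell after the short exposure, and 0 passed at 24 h by limma (0 also at an unadjusted p under 0.05). Whether the tags differ in how often they were called was not tested.

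The miR169a Mature probe, on chromosome 1, gave the largest ratio of the family in both exposures with this normalization. From the processed signals its 0.61 and 0.95 were exceeded by dim probes, namely those of miR169b after the short exposure and miR169g 3'seq in both. Its log2 ratios were 0.55, 0.80 and 0.73 on the short arrays and 1.10, 0.90 and 0.88 on the long arrays. All 6 arrays were above 0 and the long values all lay above the short ones. The rise was 0.69 ± 0.13 (SD, n = 3; 1.62-fold; limma adjusted p = 9e-05) after the short exposure and 0.96 ± 0.12 (SD, n = 3; 1.95-fold; adjusted p = 8.06e-06) at 24 h. The difference of 0.27 (95% interval 0.04 to 0.50) missed the threshold (limma adjusted p = 0.0649). Both channels were well above background on all 6 arrays. The mean log2 signal went from 10.42 in control to 11.11 in treated roots on the short arrays, and from 9.74 to 10.70 on the long arrays, so that both channels were dimmer at 24 h.

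The other probes of the miR169a locus did not move with it. The 5'seq probe was at -0.24, -0.29 and -0.11 on the short arrays and at -0.20, 0.16 and -0.08 on the long arrays. It fell by 0.21 after the short exposure (log2 units; SD 0.096, n = 3, limma adjusted p = 0.0442), a call that 12 of 17 alternatives lost, and was at -0.04 ± 0.18 (adjusted p = 0.665) at 24 h. The 3'seq probe was at -0.06 ± 0.16 and -0.12 ± 0.23 (SD, n = 3 each; adjusted p = 0.626 and 0.283). Array by array, the Mature ratio exceeded the 5'seq ratio by 0.75 to 1.29 and the 3'seq ratio by 0.57 to 1.42 on the log2 scale, on 6 of 6 arrays in both cases.

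Probes of miR169p, on chromosome 8, moved in opposite directions. The miR169p 3'seq probe was at 0.42, 0.36 and 0.46 on the short arrays and at 0.45, 0.59 and 0.74 on the long arrays, above 0 throughout with overlapping exposures. It rose by 0.42 ± 0.05 (SD, n = 3, limma adjusted p = 0.00105) and by 0.60 ± 0.15 (SD, n = 3, adjusted p = 8.58e-05). The miR169p Mature probe was at -0.14, -0.48 and -0.93 on the short arrays and at -0.34, -0.33 and -0.27 on the long arrays.

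The Mature probe of miR169p was below 0 on all 6 arrays, with a wide spread among the short ones. It fell by 0.52 (SD 0.393, n = 3, limma adjusted p = 0.00737) after the short exposure, and its -0.31 ± 0.04 at 24 h lay at the threshold and did not pass (adjusted p = 0.05). The fall was at -1.22 from the processed signals and at -0.14 on the short array of slide 1 alone (adjusted p = 0.36). Its control log2 signal was 6.85, 8.28 and 7.90 on the short arrays and 6.61 to 6.78 on the long arrays, and the treated channel was well above background on 1 of the 3 long arrays. The 3'seq ratio exceeded the Mature ratio by 0.57 to 1.38 on the log2 scale, on 6 of 6 arrays.

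The miR169b locus, on chromosome 6, was the only one of the family in which the exposures differed by the test. The miR169b 3'seq probe was at 0.27, 0.53 and 0.63 on the short arrays and at -0.07, 0.09 and 0.17 on the long arrays. The miR169b 5'seq probe was at 0.17, 0.29 and 0.25 on the short arrays and at -0.17, 0.04 and -0.15 on the long arrays. For both probes every short value lay above every long value.

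The rise after the short exposure was 0.48 ± 0.18 for 3'seq and 0.24 ± 0.06 for 5'seq (SD, n = 3 each; limma adjusted p = 0.00131 and 0.0124), and neither passed at 24 h (adjusted p = 0.516 and 0.222). The differences of 24 h minus short were -0.41 (SE 0.113) and -0.33 (SE 0.089), with limma adjusted p of 0.0201 and 0.0191. In that test 16.4% of all genes were higher and 22.3% lower (38.7% together), and of the 24 miR169 probes 2 were lower and 0 higher (1 higher at an unadjusted p under 0.05). Both probes were dim. For each, the control roots reached well above background on a single short array (1 of 3), so the size of the rise is uncertain: from the processed signals it was 1.67 for 3'seq and 1.10 for 5'seq, and the differences were -1.64 and -1.42. The short call of 5'seq was lost with median centring (0.18, adjusted p = 0.14) and without short replicate 2 or 3 (0.21 and 0.23, adjusted p = 0.062 each).

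The differences of the miR169b pair are sensitive to single arrays. With median centring they were -0.23 and -0.13 and did not pass (adjusted p = 0.23 and 0.49). They also missed the threshold without short replicate 2 (-0.39 and -0.30), without short replicate 3 (-0.34 and -0.33) and without long replicate 1 (-0.35 and -0.29). The 3'seq difference was lost without long replicate 2 (-0.43), and the 5'seq difference without long replicate 3 (-0.30).

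Of the drought and salt members, miR169n gave a rise in its 3'seq probe. The miR169n 3'seq probe, on chromosome 11, was at 0.42, 0.35 and 0.21 on the short arrays and at 0.29, 0.31 and 0.20 on the long arrays. It rose by 0.33 ± 0.11 and by 0.27 ± 0.06 (SD, n = 3 each; limma adjusted p = 0.00239 and 0.0049), and the 24 h call was lost with median centring (0.03, adjusted p = 0.8) and from the processed signals (0.18, adjusted p = 0.061). The miR169g 3'seq probe, on chromosome 4, was at 0.19, 0.16 and 0.32 on the short arrays and at 0.35, 0.34 and 0.17 on the long arrays. Its treated channel was well above background on 2 of 3 arrays in each exposure and its control channel on 0 of 6, so that it entered the test only through the treated roots, and its calls (limma adjusted p = 0.0154 and 0.00393) are given as a description. The mean treated signal was also set against a floor, with linear ratios of 1.07 on the short arrays and 1.2 on the long arrays. The floor was the higher of the control signal and the lowest signal well above background on each array. Because the probe was selected by its treated signal, which was well above background on 2 of 3 arrays per exposure, these ratios are not lower bounds. They are open to dye bias as well. From the processed signals the log2 ratios of miR169g 3'seq were 1.56 and 1.15, and with median centring 0.14 (adjusted p = 0.34) and 0.47.

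The miR169g 5'seq probe did not pass (0.10 ± 0.10 and 0.06 ± 0.06, SD, n = 3 each; limma adjusted p of at least 0.21). No probe of miR169o and no other probe of miR169n was bright enough to test.

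The largest fall of the family at 24 h was that of the miR169i 3'seq probe, on chromosome 8. It was at -0.12, -0.54 and -0.00 on the short arrays and at -0.48, -0.49 and -0.80 on the long arrays. At 24 h it fell by 0.59 (log2 units; SD 0.182, n = 3; 33.5% lower; limma adjusted p = 0.00137), with all 3 arrays below 0. After the short exposure it was at -0.22 ± 0.28 (adjusted p = 0.112), and the difference of -0.37 missed the threshold (adjusted p = 0.0876). The miR169i 5'seq probe was at -0.07 ± 0.32 and -0.06 ± 0.13 (SD, n = 3 each; limma adjusted p = 0.637 and 0.653).

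Smaller calls were measured for the miR169c 3'seq and the miR169h 3'seq probes. The former, on chromosome 4, fell by 0.17 (SD 0.049) and by 0.28 (SD 0.104) on the log2 scale (n = 3 each; limma adjusted p = 0.0387 and 0.00366), and 9 of 17 alternatives lost the short call. The latter, on chromosome 8, was at 0.16 ± 0.08 at 24 h (SD, n = 3, limma adjusted p = 0.0368), and 7 of 16 alternatives lost that call. Called probes of loci on the same chromosome went both ways. On chromosome 8 the miR169h 3'seq and miR169p 3'seq probes rose at 24 h where the miR169i 3'seq probe fell, and on chromosome 4 the miR169c 3'seq probe fell where the ratio of the miR169g 3'seq probe was positive. The remaining 13 tested probes passed in no comparison, with means from -0.07 to 0.16 after the short exposure and from -0.14 to 0.15 at 24 h.

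At 24 h 3 of the NF-YA loci fell. Of the 6 loci, 5 were well above background in both channels on all 6 arrays and were tested, and Os07g0158500 was not above background in either channel on any array. After the short exposure 2 loci fell and 1 rose by the brightest probe of each, against the same 24.2% lower and 30.6% higher of all genes. Os03g0696300 is counted there as a fall, but its other probe rose by 0.23 (limma adjusted p = 0.028, fitted on its own). From the processed signals 3 loci fell and 0 rose after the short exposure, where 7690 of all genes were lower and 5714 higher. At 24 h 3 of the 5 fell and 0 rose by limma (0 also at an unadjusted p under 0.05), where 30.9% of all genes were lower. The median log2 ratio of the 5 loci was -0.16 after the short exposure and -0.50 at 24 h, against 0.02 over all genes in both. No locus changed 2-fold with this normalization, while with median centring Os03g0411100 was at -1.08 and Os03g0696300 at -1.01 at 24 h (limma adjusted p = 1.4e-06 and 9.1e-07). Median centring also moved all genes at 24 h, to a median of -0.096 with 5009 higher and 8729 lower. With the main settings these were 0.016, 7916 and 7268. With 5 loci, these shares say little about the family as a group.

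Os03g0411100, on chromosome 3, gave the largest ratio of the NF-YA loci. Its brighter probe (AK071595) was at -0.29, -0.34 and -0.20 on the short arrays and at -0.81, -1.07 and -0.50 on the long arrays. Its other probe (AK062135) was at -0.26, -0.23 and -0.03 and at -0.79, -0.96 and -0.82. Both probes were below 0 on all 6 arrays, and in both the exposures did not overlap.

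By its brighter probe, Os03g0411100 fell by 0.80 at 24 h (log2 units; SD 0.286, n = 3; 42.4% lower; limma adjusted p = 0.000144) and by 0.28 after the short exposure (SD 0.074, n = 3; 17.6% lower; adjusted p = 0.0389). Fitted on its own, the other probe gave -0.86 at 24 h (SE 0.067, limma adjusted p = 1.1e-05) and -0.17 after the short exposure (adjusted p = 0.056). The short call of the brighter probe was lost when any 1 short array or long replicate 1 was left out (-0.25 to -0.32, adjusted p = 0.056 to 0.13). The difference between exposures was -0.52 (SE 0.138, limma adjusted p = 0.0183), and -0.68 (SE 0.094, adjusted p = 0.00085) by the other probe. It missed the threshold for the brighter probe without short replicate 3 (-0.48), without long replicate 1 (-0.51), without long replicate 2 (-0.38) and from the processed signals (-0.45, adjusted p = 0.068).

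Os03g0696300, also on chromosome 3, fell by its brighter probe but its probes disagreed. The brighter probe (AK069854) was at -0.29, -0.29 and -0.25 on the short arrays and at -0.76, -0.84 and -0.56 on the long arrays. The other (AK099549) was at 0.35, 0.04 and 0.29 and at -0.25, -0.14 and -0.09. The brighter probe was below 0 on all 6 arrays, whereas the other was above 0 on every short array and below 0 on every long one.

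The brighter probe of Os03g0696300 fell by 0.27 (SD 0.024, n = 3, limma adjusted p = 0.00734) after the short exposure and by 0.72 (SD 0.141, n = 3; 39.2% lower; adjusted p = 2.49e-05) at 24 h. Fitted on its own, the other probe rose by 0.23 (SE 0.072, limma adjusted p = 0.028) after the short exposure and was at -0.16 (SE 0.072, adjusted p = 0.081) at 24 h. The direction of this locus after the short exposure is therefore not settled. The gap between the probes was 0.33 to 0.70 on the log2 scale on every array, with the probe AK099549 higher each time. Both probes put 24 h below the short exposure, with differences of -0.45 (SE 0.091, limma adjusted p = 0.00573) and -0.39 (SE 0.102, adjusted p = 0.017). From the processed signals the former was -0.33 (adjusted p = 0.063).

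Os07g0608200, on chromosome 7, was at -0.30, -0.08 and -0.11 on the short arrays and at -0.45, -0.59 and -0.45 on the long arrays, so that the exposures did not overlap. It fell by 0.50 at 24 h (SD 0.077, n = 3; 29.1% lower; limma adjusted p = 0.00019). After the short exposure it was at -0.16 ± 0.12 (SD, n = 3, adjusted p = 0.0582). The difference of -0.33 (SE 0.090, limma adjusted p = 0.0195) missed the threshold without short replicate 2 (-0.29), without short replicate 3 (-0.31) and without long replicate 2 (-0.29).

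The other tested NF-YA loci did not fall. Os08g0196700, on chromosome 8, was at 0.13, 0.20 and 0.37 on the short arrays and at -0.02, 0.22 and 0.04 on the long arrays. It rose by 0.23 ± 0.12 after the short exposure (SD, n = 3, limma adjusted p = 0.0217), a call that was lost with median centring, from the processed signals and without short replicate 2 or 3, where it was 0.17 to 0.25. At 24 h it was at 0.08 ± 0.12 (adjusted p = 0.347). Os12g0618600, on chromosome 12, was at 0.15, -0.09 and 0.05 on the short arrays and at -0.03, 0.08 and -0.01 on the long arrays, on both sides of 0 in each exposure. Its means were 0.04 ± 0.12 and 0.01 ± 0.06 (SD, n = 3 each; limma adjusted p = 0.65 and 0.875), and the 95% interval at 24 h ran from -0.13 to 0.16. The untested Os07g0158500, on chromosome 7, was at -0.10, -0.02 and 0.39 and at -0.26, 0.01 and 0.12, which at this signal gives no measure of change.

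The difference between exposures holds the control roots as well as the treated ones, and the channel values show both. For Os03g0696300 (AK069854) the mean treated log2 signal was 10.03 after the short exposure and 10.02 at 24 h, while the control was 10.30 and 10.74. Its control values were 10.51, 10.35 and 10.04 on the short arrays and 10.68, 10.90 and 10.63 on the long arrays, with no overlap, while its treated values overlapped. For Os07g0608200 the treated signal was 8.13 and 8.09 and the control 8.29 and 8.59, with overlapping control values. For both loci the treated means lay close together and the control means lay further apart, higher at 24 h. For Os03g0411100 (AK071595) the treated signal was 10.16 and 9.76 and the control 10.44 and 10.55, so that a lower treated and a higher control signal entered the difference. For miR169b 3'seq the treated signal was 7.14 and 6.81 and the control 6.67 and 6.75.

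In a test of the control channel between exposures, 2.96% of all genes were higher and 0.647% lower at 24 h. None of the 29 tested members passed by limma (0 of 29, smallest adjusted p = 0.077), and 7 had an unadjusted p under 0.05. The share of all genes at that unadjusted cutoff was not counted, so the 7 cannot be read as an excess. The control differences of members ran from -1.03 for miR169p Mature to 0.55 for Os03g0696300 (limma adjusted p = 0.1 for each). The control test also compares slide 3 with slides 1 and 2, where roots and slides cannot be told apart.

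Set side by side at 24 h, the miR169a Mature and miR169p 3'seq ratios were positive (0.96 and 0.60) where those of Os03g0411100, Os03g0696300 and Os07g0608200 were negative (-0.80, -0.72 and -0.50). The miR169i 3'seq and miR169c 3'seq ratios were negative as well (-0.59 and -0.28), and so was that of miR169p Mature (-0.31, not called). Of the 24 tested miR169 probes, 5 rose and 2 fell at 24 h (20.8% and 8.33%), against 33.7% and 30.9% of all genes tested. The NF-YA loci Os08g0196700 and Os12g0618600 were at 0.08 and 0.01 and were not called. The other probe of Os03g0696300 was at -0.16. These ratios share arrays and control roots. A relation between microRNA and target ratios across arrays was not tested.

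Os03g0411100 was the NF-YA locus with the largest ratio, and the loci with the most similar set of 6 log2 ratios (smallest Euclidean distance over the 6 arrays) were Os04g0579700 (distance 0.212) and Os01g0902100 (distance 0.217). Of 23225 loci tested, 145 lay within 2 times the smallest distance, so the pattern was shared by many loci. The files do not name these loci. For NF-YB and NF-YC, the partner subunits, 0 of the array's 29689 locus numbers could be matched to the reference table of gene names, so these genes were not analysed here.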

How the data were processed

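The members and lists were chosen with earlier results of these data known. The deposited intensity values (median brightness of spot and local background, linear scale) come from Agilent's Feature Extraction software, version 10.7.1.1 per the file headers. The deposited table holds log2 ratios that match log2 of processed red over processed green (r = 1 on each array), with medians from -0.178 to 0.0385, and was used as an alternative. In a new normalization, normexp (offset 50) removed background and loess balanced the dyes of each array, in limma 3.58.1 (R 4.3.3), with control and outlier spots at weight 0. Spots of a probe were averaged, and the brightest probe stood for a locus. A gene was tested if, on 3 or more of 6 arrays, a spot had either channel flagged above background, with at least 2 values per exposure (23500 of 30277). A limma fit gave each mean ratio against 0 and the difference, with Benjamini-Hochberg adjustment over all genes tested. Control signals were quantile-normalized. The scanner software's processed signals (background-subtracted and dye-normalized by it) were an alternative. Each channel's level comes from Aquantile values. The offset pulls dim ratios toward 0, and the number of arrays limits the precision. All member loci and all called miR169 probes are named, by rule. The flags marking signal above background (other, coded 0 or 1) were deposited too. The fit was also run on simulated data with independent noise per spot. Those data held no slide effect and no dye bias, so that run says nothing about these limits.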

Additional observations from a re-analysis of the deposited data

Results flagged for a closer look

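For 5 members, limma's test of the difference itself separated the 24 h ratio from the short one. The 24 h minus short difference was -0.52 for Os03g0411100 (AK071595), -0.45 for Os03g0696300 (AK069854) and -0.33 for Os07g0608200 (AK101684). It was -0.41 for miR169b 3'seq and -0.33 for miR169b 5'seq. With the main settings 38.7% of all genes tested differed. Without the short arrays on slide 2, 1 short array remained, so only sizes are given for that setting. The differences were then -0.50 for Os03g0411100, -0.43 for Os03g0696300 and -0.20 for Os07g0608200. They were -0.21 for miR169b 3'seq and -0.26 for miR169b 5'seq.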

How the results depend on the processing

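The 24 h falls of the 3 NF-YA loci, both rises of miR169a Mature, the short rise of miR169n 3'seq and the 24 h calls of miR169c, miR169i and miR169p 3'seq (9 of 27 calls) passed under every alternative, for Os03g0696300 by its brighter probe only (the other gave -0.16, adjusted p = 0.081). The 24 h call of miR169g 3'seq passed where it was tested, but it has no value with a signal on all 6 arrays. In all, no call of the 27 changed direction in 456 values. The other 17 calls were lost in 79 values in all. The cause was not tested. Of miR169 probes after the short exposure, the 3 lower became 1 without background correction, with median centring, with an intensity trend and with the replicate block. At 24 h, the 5 higher became 3 with a signal on all 6 arrays. The probes miR169g 3'seq and miR169h 3'seq were not tested under that filter, and it lost 0 calls. The 2 lower at 24 h became 5 with Agilent's processed signals or the deposited table, where 7664 or 7695 of all genes were lower. They became 4 with the slide as a random block (correlation -0.106), where 7859 of all genes were lower. With the main settings 7268 of all genes were lower at 24 h. For the difference, the 0 higher became 1 with the slide block and the 2 lower became 1 with median centring. The counts over all genes moved with the setting as well. In the difference, median centring gave 1837 higher and 6399 lower, against 3844 and 5240 with the main settings. Of NF-YA loci after the short exposure, the 1 higher became 0 with Agilent's processed signals, the deposited table or median centring, and 2 when every probe was counted on its own. The 3 lower in the difference became 1 with the processed signals or the deposited table and 5 when probes were counted. In the control channel, members lower went from 0 to 4 with median centring. An alternative without the short arrays on slide 2 was chosen after the data were seen. It leaves 1 short array, assumed to vary like the others, so counts of calls are not given for it. The called short ratios then ran from -0.29 for Os03g0411100 (AK071595) to 0.55 for miR169a Mature, and no sign changed. Leaving out 1 array at a time gave 4 to 6 higher and 1 to 3 lower miR169 probes and 0 to 1 higher and 1 to 2 lower NF-YA loci after the short exposure, 4 to 5 higher and 2 to 3 lower miR169 probes and 3 lower NF-YA loci at 24 h, 0 to 2 lower miR169 probes and 1 to 3 lower NF-YA loci in the difference, and 0 to 4 higher and 0 to 1 lower members in the control channel. The same replicate numbers did not pair the arrays (correlations of deviations -0.234, -0.118 and -0.1), and the replicate block lost 4 of the 27 calls, among them the Os07g0608200 difference (-0.33, adjusted p = 0.052).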
